A study of Mus musculus with 12 samples.

Results

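The collagen chain genes were taken as all rows of the deposited count table whose symbol is exactly Col, a number, a and a number, which gave 44 genes of 32248 rows. The cells were OCY454, a mouse osteocyte-like line that divides at 33 °C and differentiates at 37 °C. Piezo1 encodes a mechanically gated cation channel, and the comparison addressed its part in osteocyte differentiation. The Piezo1 KO line, made by CRISPR-Cas9 deletion of exons 19 to 21, was sequenced as poly(A) RNA after 1, 14 and 28 days at 37 °C, and the WT line was sequenced at the same days. There were 2 libraries for each of the 6 groups. Both lines were maintained in 10% fetal bovine serum, and the labels give no other treatment for any group. How many edited clones stand behind the KO line is not stated in the labels. Nor do they say that replicates were separate cultures, so each p-value measures only the spread between these libraries.

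The libraries held 8590067 to 15357427 counts. Replicates lay further apart at day 28 than at the earlier days, with a chi-square per degree of freedom over genes of 5.31 in KO and 9.97 in WT at day 28, against 1.4 to 3.16 in the other 4 groups. Piezo1 held 170 and 169 CPM (counts scaled to library size) in KO and 216 and 214 CPM in WT at day 1, and 114 and 107 CPM in KO and 210 and 206 CPM in WT at day 14. At day 28 it held 281 and 275 CPM in KO and 235 and 242 CPM in WT. Since the count runs over the whole gene and the deletion removes a few exons, these values do not check the KO label. All 8 osteoblast markers were detected in each group, and their summed level ran from 1340 to 4360 CPM in KO and from 2060 to 4900 CPM in WT. Of 8 osteocyte markers, the summed level ran from 78.8 to 114 CPM in KO and from 93.1 to 131 CPM in WT, and Fgf23 was at 0 in KO at days 1 and 28 and in WT at day 28. Markers of endothelium, blood cells, fat and muscle were low. Those of cartilage and of fibroblasts and tendon, given last, were of the same order as the osteocyte sum. The 6 endothelial genes summed to at most 2.26 CPM in KO and 5.77 CPM in WT, the 6 blood cell genes to at most 10.2 and 16.3 CPM, the 6 adipocyte genes to at most 4.8 and 14.1 CPM, and the 6 muscle genes to at most 13.2 and 16.1 CPM in KO and WT, with the muscle regulators Myod1 and Myog at 0 in every library. The T cell gene Cd3e was also at 0 in every library. The 10 chondrocyte genes summed to 48.8 to 77.4 CPM in KO and 82.5 to 107 CPM in WT, and the cartilage genes Snorc and Matn1 were at 0 in several groups. The 8 fibroblast and tendon genes summed to 81 to 186 CPM in KO and 90.6 to 152 CPM in WT, with the tendon gene Tnmd at 0 in all groups but WT at day 14.

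Collagens are secreted or membrane proteins built from alpha chains wound into a triple helix. The fibrillar collagens form the cable-like fibrils that give bone its tensile frame, with type I collagen, made from Col1a1 and Col1a2 chains, as the main protein of bone matrix. Network collagens form the sheets of basement membranes and the lattices of other matrices, FACIT chains decorate fibril surfaces, type VI collagen makes beaded filaments around cells, multiplexins sit in basement membrane zones, and transmembrane collagens are anchored in the plasma membrane. Osteoblasts secrete large amounts of type I collagen, and osteocytes are the cells that become buried in that matrix.

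Collagen transcripts formed a larger part of the transcriptome in KO than in WT at day 14. The 44 genes took 2.57% and 2.59% of all counts in KO and 2.36% and 2.29% in WT at day 1. At day 14 they took 5.31% and 5.34% in KO and 3.16% and 3.36% in WT, and at day 28 they took 1.71% and 1.38% in KO and 1.9% and 1.44% in WT. Replicates of each line did not overlap with the other line at days 1 and 14, and did overlap at day 28. By counts, with no adjustment for transcript length, Col1a1 ranked 1 in both KO libraries and 3 in both WT libraries at day 14. At day 28 its rank was 13 and 31 in KO and 9 and 20 in WT. In bulk RNA, fewer cells that make a transcript and less of it per cell cannot be told apart.

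Levels of different chains were set side by side as CPM per kilobase of transcript, summed within each class. The fibrillar class took 79.8% ± 0.129 (SD, n = 2) of the collagen level in KO at day 1, 87.8% ± 0.0299 at day 14 and 80.6% ± 2.58 at day 28, and 83% ± 0.364, 86.1% ± 0.311 and 77.4% ± 0.382 in WT at the same days. The summed fibrillar level was 3190 ± 17.6, 7790 ± 10.9 and 2090 ± 408 CPM per kilobase in KO at days 1, 14 and 28, and 2920 ± 90.8, 4560 ± 214 and 2090 ± 413 in WT. Beaded filament chains came next, with 652 ± 1.82, 897 ± 1.68 and 329 ± 12.8 CPM per kilobase in KO and 381 ± 8.33, 402 ± 4.29 and 322 ± 74 in WT. Type IV and short-chain network chains together held 44.5 ± 1.24, 65.2 ± 0.39 and 74.1 ± 0.781 CPM per kilobase in KO, below the 95.5 ± 2.54, 175 ± 4.19 and 141 ± 18.3 in WT. FACIT chains held 106 ± 1.61, 93 ± 1.9 and 45.4 ± 0.0209 CPM per kilobase in KO, and 95.4 ± 1.87, 91.9 ± 4.39 and 77.6 ± 9.47 in WT. Thus the summed fibrillar and beaded filament levels were above WT at days 1 and 14 and overlapped with it at day 28. The network classes were below WT at every day, and the FACIT level was above WT at day 1 and below it at day 28. The day 1 fibrillar difference was about that of Col1a1 alone (1090 CPM per kilobase in KO and 811 in WT), whose call at that day was not stable, as given below. At day 1, 3 fibrillar chains were called higher and 4 lower, and 1 FACIT chain higher and 2 lower. Over all genes, 19.5% were higher and 20.8% lower. Multiplexins and transmembrane chains were minor in both lines, at 6.08 to 46.9 and 1.4 to 2.23 CPM per kilobase in KO group means and 22.3 to 55.1 and 4.69 to 14.4 in WT group means.

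**Figure D1:**
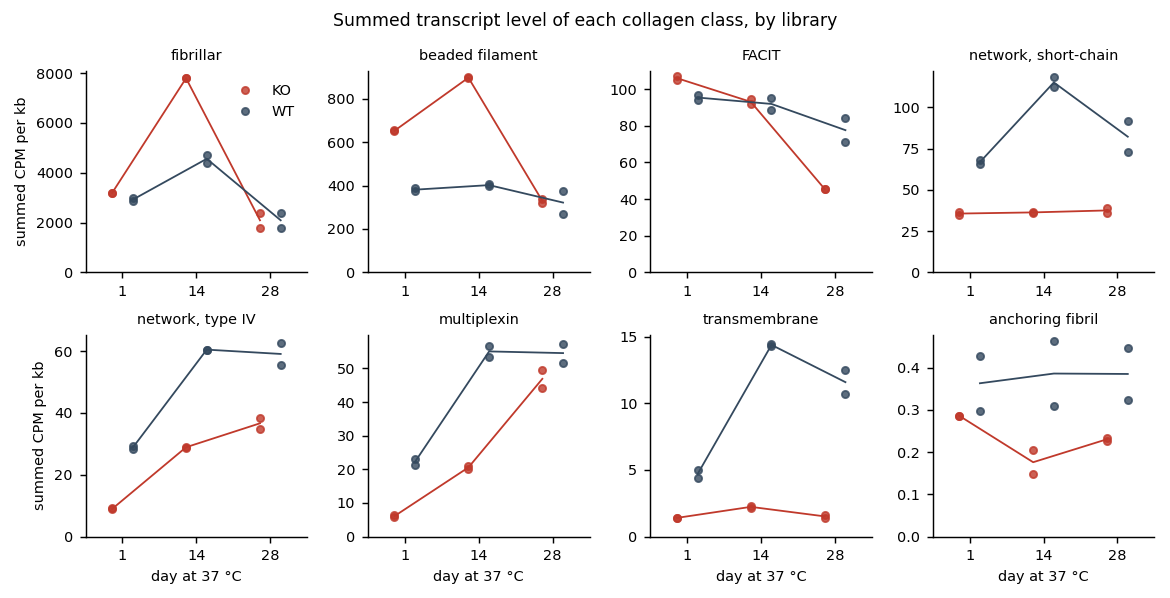
Summed level of each collagen class by library, in CPM per kilobase of transcript (y axes start at 0), against days at 37 °C; each point is 1 library, lines join group means, KO in red and WT in dark grey-blue. The fibrillar level of the KO libraries stands near 7790 at day 14, against about 4560 in WT, while the network classes of KO stay below WT at every day.

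Of the 44 genes, 34 passed the filter on low counts and were tested with edgeR over all 13772 genes tested, with Benjamini-Hochberg adjustment and a call at an adjusted p below 0.05. At day 1, 24 of the 34 differed between KO and WT, 7 higher and 17 lower in KO, where 40.3% of all genes tested were called, 19.5% higher and 20.8% lower (2686 and 2858 genes, or 2122 and 3413 with library totals in place of TMM). At day 14, 28 differed, 11 higher and 17 lower, where 49.7% of all genes were called, 23.8% higher and 25.9% lower. At day 28, 22 differed, 4 higher and 18 lower, where 41.0% of all genes were called, 19.8% higher and 21.2% lower (2721 and 2920 genes, or 1809 and 3688 with library totals). The median log2 fold change of the 34 chains, KO minus WT, was -0.50, -0.36 and -0.37 at days 1, 14 and 28, beside -0.01, -0.02 and -0.01 over all genes tested. These medians cover the chains that passed the filter, not all 44.

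**Figure D2:**
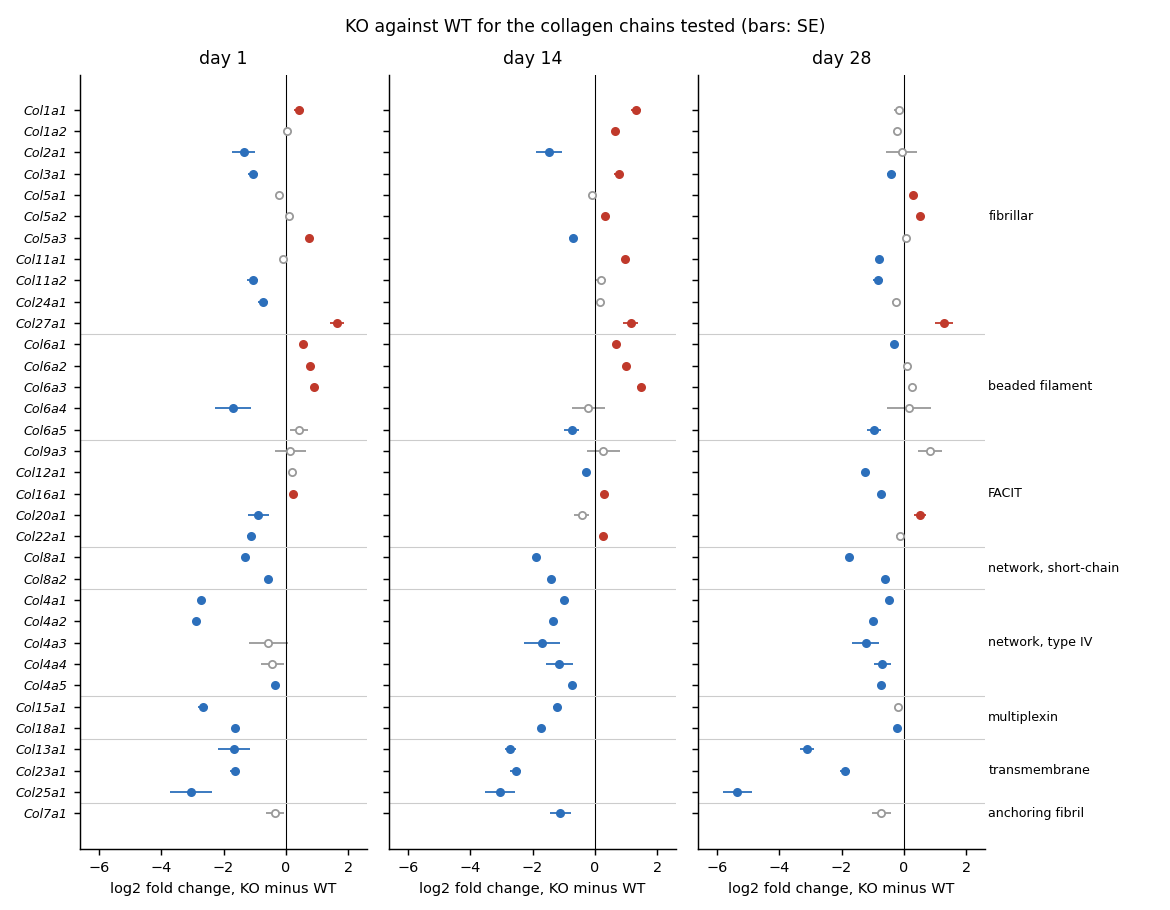
Log2 fold change, KO minus WT, of the 34 chains tested at days 1, 14 and 28 (x axes), ordered by class; filled red points were called higher in KO, filled blue points lower, open points were not called, and bars are the SE. All 7 network chains lie left of 0 at every day, Col27a1 lies right of 0 at every day, and Col3a1 and Col11a1 lie right of 0 at day 14 and left of 0 at days 1 and 28.

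A set of 9 of the 34 chains was lower in KO at all 3 days, as were 8.66% of all genes tested: Col4a1, Col4a2, Col4a5, Col8a1, Col8a2, Col13a1, Col18a1, Col23a1 and Col25a1. Of the chains, Col27a1 was the 1 higher at all 3 days, beside 7.38% of all genes. The 4 chains Col3a1, Col6a1, Col11a1 and Col16a1 were higher in KO at day 14 and lower at day 28, beside 1.39% of all genes, and 7 chains in all were higher at 1 day and lower at another, beside 5.74% of all genes. Col9a3 was the 1 chain called at no day, beside 29.9% of all genes. These shares are given as a description, with no test.

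Among the 11 fibrillar chains, 3 were higher and 4 lower in KO at day 1. At day 14, 6 were higher and 2 lower, and at day 28, 3 were higher and 3 lower. At these days, 19.5%, 23.8% and 19.8% of all genes tested were higher and 20.8%, 25.9% and 21.2% lower. Col1a1 encodes the alpha 1 chain of type I collagen and lies on the plus strand of chromosome 11, from 94936224 to 94953042 (GRCm38). It held 6410 and 6510 CPM in KO and 4880 and 4740 CPM in WT at day 1, and 17900 and 17700 CPM in KO and 6890 and 7500 CPM in WT at day 14. At day 28 its libraries held 2810 and 1710 CPM in KO and 3050 and 2040 CPM in WT. The lines stood well apart at day 14, and their libraries overlapped at day 28. The log2 fold change, KO minus WT, was 1.31 ± 0.16 (SE, adjusted p = 6.67e-07) at day 14, a level 2.47-fold higher in KO. At day 1 it was 0.43 ± 0.16 (adjusted p = 0.0337), and this call was lost with library totals in place of TMM (adjusted p = 0.0603), with DESeq2 (adjusted p = 0.213) and without any 1 of the 4 libraries of that day (adjusted p = 0.0903 to 0.144). At day 28 it was -0.17 ± 0.16 (adjusted p = 0.395) and turned with the library left out, to 0.14 without WT replicate 1 or without KO replicate 2, and to -0.43 (adjusted p = 0.00355) without WT replicate 2 and -0.57 (adjusted p = 0.00277) without KO replicate 1.

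Col1a2, the alpha 2 chain of type I collagen, held 5950 and 6000 CPM in KO and 6030 and 5700 CPM in WT at day 1, and 14900 CPM in both KO libraries and 9160 and 9800 CPM in WT at day 14. The day 28 libraries held 4260 and 3400 CPM in KO and 5120 and 3760 CPM in WT. Its libraries overlapped between the lines at days 1 and 28 and stood apart at day 14. Its log2 fold change was 0.03 ± 0.11 (adjusted p = 0.866) at day 1, 0.65 ± 0.11 (adjusted p = 2.81e-05) at day 14, and at day 28 it was -0.21 ± 0.11 (adjusted p = 0.114). The day 28 difference was called with library totals (-0.30, adjusted p = 0.0234) and without WT replicate 2 (-0.42, adjusted p = 2.41e-05) or KO replicate 1 (-0.38, adjusted p = 0.0128).

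Col3a1 encodes type III collagen, which is found with type I in soft connective tissue and repair matrix. It held 89.4 and 86.1 CPM in KO and 185 and 179 CPM in WT at day 1, and 912 and 1030 CPM in KO and 538 and 613 CPM in WT at day 14. By day 28 there were 239 and 159 CPM in KO and 316 and 209 CPM in WT. KO libraries were thus below WT at day 1, above it at day 14 and overlapping at day 28. The log2 fold changes were -1.05 ± 0.16 (adjusted p = 1.59e-05), 0.76 ± 0.14 (adjusted p = 0.000171) and -0.41 ± 0.15 (adjusted p = 0.0333), and the last call was lost without WT replicate 1 (-0.08, adjusted p = 0.637), without KO replicate 2 (-0.13, adjusted p = 0.531) and with DESeq2 (adjusted p = 0.215). Without WT replicate 2 or KO replicate 1 it was -0.67 or -0.73.

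Type V collagen regulates the assembly and width of type I fibrils. Col5a2 was the third most abundant chain by mean CPM, with 4340 and 4350 CPM in KO and 4130 and 3900 CPM in WT at day 1, and 7400 and 7490 CPM in KO and 5810 and 6100 CPM in WT at day 14. For day 28 the values were 5030 and 4060 CPM in KO and 3430 and 3010 CPM in WT. Every KO library lay above every WT library at each day. The difference was 0.11 ± 0.08 (adjusted p = 0.297) at day 1, 0.32 ± 0.08 (adjusted p = 0.00261) at day 14, and at day 28 it was 0.50 ± 0.08 (adjusted p = 5.92e-05) on the log2 scale. Col5a1 held 1770 CPM in both KO libraries and 2090 and 2010 CPM in WT at day 1, and 2190 and 2270 CPM in KO and 2320 and 2400 CPM in WT at day 14. At day 28 its libraries held 1650 and 1290 CPM in KO and 1360 and 1050 CPM in WT. The lines were close at every day, and at day 28 their libraries overlapped. Its log2 fold changes were -0.21 ± 0.10 (adjusted p = 0.0891), -0.08 ± 0.10 (adjusted p = 0.508) and 0.29 ± 0.10 (adjusted p = 0.0227). The day 28 call was lost with library totals (0.20, adjusted p = 0.105), with DESeq2 (adjusted p = 0.111) and without WT replicate 2 (0.12) or KO replicate 1 (0.11), and it was 0.49 without WT replicate 1 and 0.46 without KO replicate 2. The day 1 difference was called with library totals (adjusted p = 0.0288) and without any 1 library of day 28 (adjusted p = 0.00604 to 0.0485). Exons of Col5a1 overlap those of 2810430I11Rik and Gm13372 on the other strand, so reads of these genes may be mixed. Col5a3, a minor type V chain, was higher in KO at day 1 (55.7 against 33.3 CPM, log2 fold change 0.74 ± 0.10, adjusted p = 5.23e-06) and lower at day 14 (24.5 against 39.7 CPM, -0.71 ± 0.11, adjusted p = 2.85e-05), and it was not called at day 28 (67.8 against 64.9 CPM, adjusted p = 0.641).

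Col11a1 and Col11a2 encode type XI chains, which nucleate fibrils together with type II collagen in cartilage and mix with type V chains elsewhere. Col11a1 held 532 and 540 CPM in KO and 573 CPM in both WT libraries at day 1, and 2060 and 2030 CPM in KO and 1020 and 1070 CPM in WT at day 14. The day 28 libraries held 359 and 305 CPM in KO and 644 and 517 CPM in WT. Its lines were close at day 1 and stood apart in opposite directions at days 14 and 28. The log2 fold changes were -0.10 ± 0.08 (adjusted p = 0.393), 0.97 ± 0.08 (adjusted p = 5.61e-09) and -0.81 ± 0.09 (adjusted p = 1.9e-07). Col11a2 held 117 and 109 CPM in KO and 234 and 242 CPM in WT at day 1, and 825 and 882 CPM in KO and 722 and 765 CPM in WT at day 14. By day 28 there were 241 and 135 CPM in KO and 387 and 277 CPM in WT. KO was below WT at days 1 and 28, and the day 14 libraries of KO were above those of WT without a call. Its differences were -1.07 ± 0.17 (adjusted p = 2.6e-05), 0.20 ± 0.16 (adjusted p = 0.304) and -0.83 ± 0.16 (adjusted p = 0.000336), and the last was -1.29 without KO replicate 1 and -0.46 without KO replicate 2 of that day.

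Col2a1, the cartilage collagen, was scarce, at 4.69 and 4.26 CPM in KO and 4.61 and 18.4 CPM in WT at day 1, and 4.62 and 3.94 CPM in KO and 12.3 and 11.4 CPM in WT at day 14. For day 28 the values were 3.72 and 2.51 CPM in KO and 3.21 and 3.22 CPM in WT. WT replicate 2 of day 1 stood apart from its replicate with 280 counts against 71. Without that library the day 1 log2 fold change of -1.36 ± 0.38 (adjusted p = 0.00723) was -0.04 (adjusted p = 0.926). The call was also lost without KO replicate 2 (-1.29, adjusted p = 0.0655) and with DESeq2 (adjusted p = 0.062). At day 14 Col2a1 was lower in KO (-1.48 ± 0.41, adjusted p = 0.00497), a call lost without KO replicate 2 (-1.36, adjusted p = 0.0505). The summed chondrocyte markers were also below WT in KO, as given above, but single markers went both ways. Of the 6 tested, 2 were higher and 3 lower in KO at day 1, and 1 higher and 2 lower at day 14. Over all genes, 40.3% and 49.7% were called at these days. Sox9 was among the higher markers at both days (0.32 ± 0.08 and 0.51 ± 0.10). The part of these markers in the Col2a1 values was not tested.

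The minor fibrillar chains Col24a1 and Col27a1 went separate ways. Col27a1 held 13.9 and 14 CPM in KO and 4.35 and 4.66 CPM in WT at day 1, and 11.1 and 11.7 CPM in KO and 4.63 and 5.9 CPM in WT at day 14. At day 28 its libraries held 7.95 and 4 CPM in KO and 2.3 and 2.47 CPM in WT. Every KO library was above every WT library of its day. The difference on the log2 scale was 1.63 ± 0.22 (adjusted p = 3.54e-06), 1.14 ± 0.23 (adjusted p = 0.000391) and 1.29 ± 0.28 (adjusted p = 0.000875), and the last was 0.75 (adjusted p = 0.0372) without KO replicate 1. Col24a1 was lower in KO at day 1 (9.96 against 16.6 CPM, -0.75 ± 0.16, adjusted p = 0.00075) and was not called at day 14 (84.9 against 75.4 CPM) or day 28 (22.8 against 26.8 CPM). Without WT replicate 2 of day 28 its difference there was called (-0.47, adjusted p = 0.00111).

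**Figure D3:**
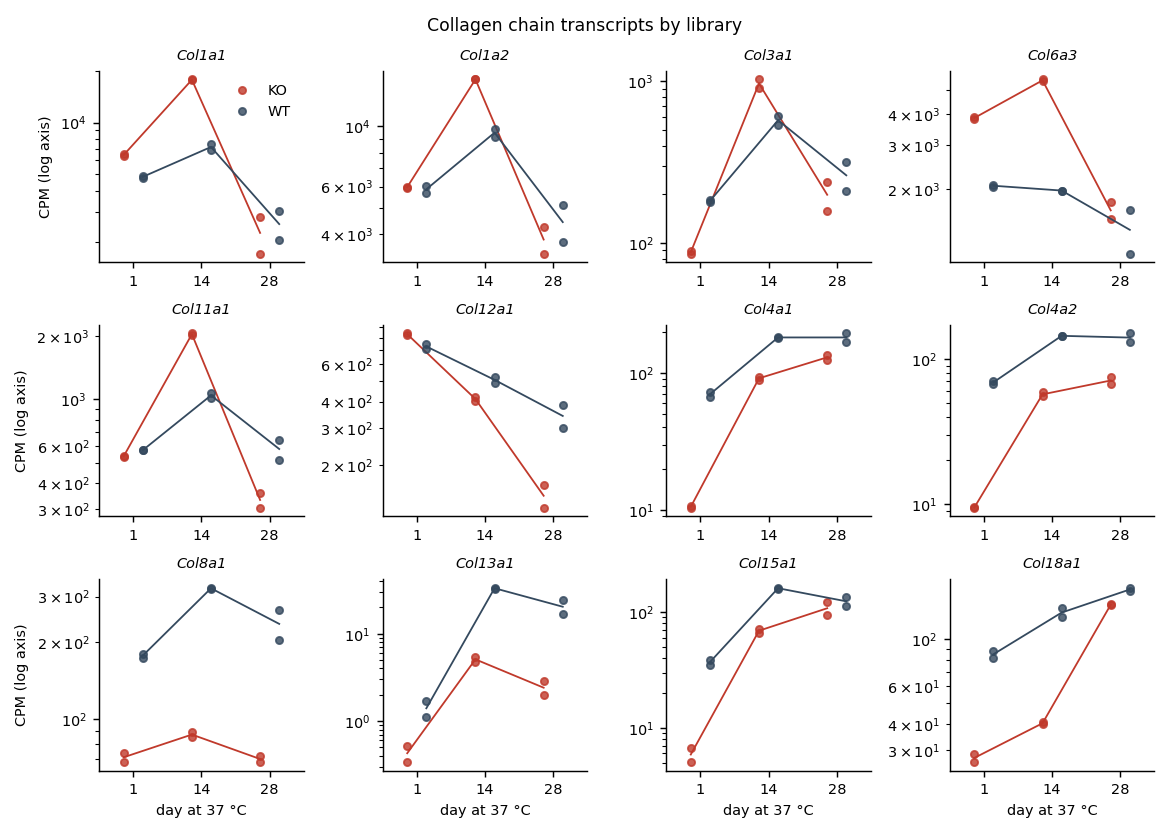
Level of 12 chains in each library, as CPM on log axes that do not start at 0, against days at 37 °C; points are libraries, lines join the means of 2 libraries, KO in red and WT in dark grey-blue. Col1a1, Col3a1 and Col11a1 peak in KO at day 14, Col8a1 stays between 68.5 and 89.2 CPM in KO, and Col4a1, Col4a2 and Col15a1 climb in KO from about 10 CPM or less at day 1.

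Promoter windows of 250 bases before the RefSeq start were available for 35 of the 44 genes, as 38 windows on GRCm38.p6. The GC box (GGGCGG) was present in 22 windows, or 57.9%, beside 32.7% of the 32851 windows in the table. The CCAAT box (CCAAT) was present in 13 (34.2%, beside 33.8%), and the TATA box (TATAAA) in 5 (13.2%, beside 12.4%). Both strands were searched, no motif contains another, and a match is a run of letters only. Windows are shown for 3 fibrillar genes whose KO libraries were highest at day 14, with the motifs found on either strand in capitals. They are Col3a1 (chr1:45311288-45311537, plus strand), Col11a1 (chr3:114030290-114030539, plus strand) and Col11a2 (chr17:34038888-34039137, plus strand).
Col3a1: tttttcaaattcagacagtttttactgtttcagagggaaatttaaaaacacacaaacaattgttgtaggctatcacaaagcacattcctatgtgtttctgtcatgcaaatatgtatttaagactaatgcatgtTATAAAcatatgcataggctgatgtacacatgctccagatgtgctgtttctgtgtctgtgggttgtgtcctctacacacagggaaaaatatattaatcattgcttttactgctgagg
Col11a1: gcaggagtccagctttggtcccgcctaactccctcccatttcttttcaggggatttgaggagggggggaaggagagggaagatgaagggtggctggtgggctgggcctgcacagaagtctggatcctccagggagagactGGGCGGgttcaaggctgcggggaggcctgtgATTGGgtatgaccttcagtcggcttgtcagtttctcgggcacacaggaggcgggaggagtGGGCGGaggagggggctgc
Col11a2: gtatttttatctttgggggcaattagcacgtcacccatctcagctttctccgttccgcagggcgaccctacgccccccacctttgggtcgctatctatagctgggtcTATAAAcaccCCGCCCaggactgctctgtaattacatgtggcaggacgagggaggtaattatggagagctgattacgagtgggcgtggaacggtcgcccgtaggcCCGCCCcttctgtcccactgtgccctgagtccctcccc
The Col3a1 window held 1 TATA box and no GC box, the Col11a1 window 2 GC boxes and 1 CCAAT box, and the Col11a2 window 2 GC boxes and 1 TATA box, so no motif searched was shared by all 3.

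The main beaded filament chains were higher in KO at days 1 and 14. Of the 5 chains tested, 3 were higher and 1 lower at day 1, and 3 higher and 1 lower at day 14. None were higher and 2 were lower at day 28. For all genes tested, the shares were 19.5% higher and 20.8% lower, 23.8% and 25.9%, and 19.8% and 21.2% at these days. Col6a3, the large alpha 3 chain of type VI collagen, held 3890 and 3820 CPM in KO and 2080 and 2040 CPM in WT at day 1, and 5510 and 5410 CPM in KO and 1970 CPM in both WT libraries at day 14. The day 28 libraries held 1770 and 1510 CPM in KO and 1640 and 1100 CPM in WT. KO stood apart from WT at days 1 and 14, and the libraries overlapped at day 28. KO minus WT, the log2 fold change was 0.91 ± 0.11 (adjusted p = 1.56e-06), 1.47 ± 0.11 (adjusted p = 9.86e-10) and 0.26 ± 0.11 (adjusted p = 0.0685). The day 28 difference was called without WT replicate 1 (0.58, adjusted p = 2.53e-08) and without KO replicate 2 (0.38, adjusted p = 0.0302).

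Col6a1 held 687 and 698 CPM in KO and 493 and 469 CPM in WT at day 1, and 825 and 861 CPM in KO and 526 and 540 CPM in WT at day 14. By day 28 there were 369 and 395 CPM in KO and 539 and 424 CPM in WT. It was above WT at the earlier days and below it at day 28, with log2 fold changes of 0.53 ± 0.08 (adjusted p = 2.24e-05), 0.66 ± 0.08 (adjusted p = 8.09e-07) and -0.33 ± 0.08 (adjusted p = 0.00233). The last call was lost without WT replicate 1 (-0.15, adjusted p = 0.0607). Col6a2 held 400 and 404 CPM in KO and 239 and 231 CPM in WT at day 1, and 590 and 602 CPM in KO and 295 and 307 CPM in WT at day 14. For day 28 the values were 284 and 290 CPM in KO and 314 and 221 CPM in WT. Both KO libraries fell between the WT libraries at day 28. The log2 fold changes of Col6a2 were 0.77 ± 0.10 (adjusted p = 1.96e-06), 0.99 ± 0.10 (adjusted p = 4.25e-08) and 0.10 ± 0.10 (adjusted p = 0.453), the last being 0.38 (adjusted p = 1.09e-05) without WT replicate 1 and -0.13 without WT replicate 2. The related chains Col6a4 and Col6a5 were under 9 CPM in all libraries. Col6a5 was lower in KO at day 14 (3.74 against 6.21 CPM, -0.74 ± 0.24, adjusted p = 0.0151) and at day 28 (4.19 against 8.31 CPM, -0.97 ± 0.22, adjusted p = 0.00108), and the day 14 call was lost without WT replicate 1 or KO replicate 1 (-0.52 and -0.55). Col6a4 was called lower in KO at day 1 (0.275 against 0.913 CPM, -1.69 ± 0.58, adjusted p = 0.025), a call lost without any 1 of the 4 libraries of that day and with DESeq2 (adjusted p = 0.124).

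Of the 9 FACIT genes, 5 were tested. Col12a1, which binds the surface of type I fibrils, had the highest mean CPM of them, with 826 and 839 CPM in KO and 712 and 745 CPM in WT at day 1, and 419 and 403 CPM in KO and 491 and 522 CPM in WT at day 14. At day 28 its libraries held 161 and 126 CPM in KO and 385 and 299 CPM in WT. Both lines declined over the days, and KO ended lower. The log2 fold change was 0.19 ± 0.10 (adjusted p = 0.116), -0.30 ± 0.10 (adjusted p = 0.0146) and -1.26 ± 0.10 (adjusted p = 4.36e-09). The day 14 call was lost with DESeq2 (adjusted p = 0.0892) and without WT replicate 2 (-0.26) or KO replicate 2 (-0.27), and the day 1 difference was called without WT replicate 1 or 2 of day 28 (adjusted p = 0.00956 and 0.00916).

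Col16a1 was higher in KO at days 1 and 14 and lower at day 28, with means of 161, 224 and 118 CPM in KO and 139, 185 and 197 CPM in WT, and log2 fold changes of 0.21 ± 0.08 (adjusted p = 0.0408), 0.28 ± 0.08 (adjusted p = 0.00638) and -0.74 ± 0.08 (adjusted p = 3.44e-07). Its day 1 call was lost with library totals, with DESeq2 and without any 1 library of that day, and its day 14 call without WT replicate 1 or KO replicate 2 (0.23 in both). Col22a1, a FACIT of tissue junctions, was lower in KO at day 1 (18 against 38.8 CPM, -1.11 ± 0.13, adjusted p = 7.31e-07) and close to WT later, at 114 against 95.1 CPM at day 14 (0.27 ± 0.10, adjusted p = 0.0374) and 62.2 against 67.6 CPM at day 28 (-0.13 ± 0.11, adjusted p = 0.355). Its day 14 call was lost without any 1 library of that day (0.21 to 0.32), and its day 28 difference was called without WT replicate 2 (-0.29, adjusted p = 0.0168). Col20a1 held 1.28 and 0.956 CPM in KO and 1.69 and 2.43 CPM in WT at day 1, and 3.96 and 3.6 CPM in KO and 4.72 and 5.55 CPM in WT at day 14. The day 28 libraries held 9.51 and 11.9 CPM in KO and 7.05 and 8.17 CPM in WT. KO was thus below WT at day 1 and above it at day 28. The day 1 difference was -0.89 ± 0.34 (adjusted p = 0.0417) and the day 28 difference 0.51 ± 0.19 (adjusted p = 0.0372). Both calls were lost with DESeq2 (adjusted p = 0.075 and 0.142). They were lost as well, at one day or the other, without either KO library or WT replicate 2 of day 1 (-1.09, -0.68 and -0.60), without either KO library of day 14 (-0.88 in both, adjusted p = 0.0517), and without WT replicate 1 or KO replicate 2 of day 28 (0.40 and 0.33).

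The network chains were lower in KO wherever they were called. At day 1, 5 of the 7 were lower in KO and none higher, and at days 14 and 28 all 7 were lower. Genes called lower in KO made up 20.8%, 25.9% and 21.2% of all genes tested at days 1, 14 and 28. Col8a1 encodes a short-chain collagen of the vessel wall and the corneal basement membrane. It held 74.2 and 68.5 CPM in KO and 174 and 180 CPM in WT at day 1, and 85.6 and 89.2 CPM in KO and 321 and 325 CPM in WT at day 14. By day 28 there were 71.9 and 68.6 CPM in KO and 266 and 204 CPM in WT. The 6 KO libraries all lay below the lowest WT library. Its log2 fold change was -1.32 ± 0.09 (adjusted p = 3.26e-10), -1.88 ± 0.09 (adjusted p = 7.11e-13) and -1.75 ± 0.09 (adjusted p = 5.76e-12), a level 2.49-fold, 3.69-fold and 3.35-fold lower in KO. Its partner chain Col8a2 averaged 93.4, 82.8 and 103 CPM in KO and 138, 222 and 156 CPM in WT, with log2 fold changes of -0.57 ± 0.08 (adjusted p = 8.43e-06), -1.42 ± 0.08 (adjusted p = 1.11e-11) and -0.61 ± 0.08 (adjusted p = 3.32e-06). The 250 bases before the Col8a1 start (chr16:57754738-57754987, minus strand, GRCm38.p6) are shown because this chain was lower in every KO library, with the reverse complement of the GC box in capitals.
Col8a1: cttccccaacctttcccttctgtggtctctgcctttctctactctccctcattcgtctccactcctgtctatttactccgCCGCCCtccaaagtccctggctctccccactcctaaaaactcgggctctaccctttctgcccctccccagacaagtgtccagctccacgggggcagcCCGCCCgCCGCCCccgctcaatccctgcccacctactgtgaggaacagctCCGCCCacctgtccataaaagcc
This window held 4 GC boxes and neither a CCAAT nor a TATA box, and the Col8a2 window also held 4 GC boxes.

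Col4a1 and Col4a2 encode the chains of the common type IV collagen of basement membranes. Their genes lie head to head on chromosome 8 with starts 21 bases apart (GRCm38), so their exons overlap on opposite strands, and whether reads were counted by strand is not stated. Col4a1 held 10.7 and 10.4 CPM in KO and 66.8 and 72.9 CPM in WT at day 1, and 89.2 and 93.5 CPM in KO and 181 and 182 CPM in WT at day 14. For day 28 the values were 124 and 136 CPM in KO and 194 and 169 CPM in WT. The gap between the lines was widest at day 1 and narrowed over the days, from a level 6.64-fold lower in KO at day 1 to 1.99-fold lower at day 14 and 1.4-fold lower at day 28. The log2 fold changes were -2.73 ± 0.10 (adjusted p = 2.62e-14), -0.99 ± 0.08 (adjusted p = 8.94e-10) and -0.48 ± 0.07 (adjusted p = 1.92e-05). Col4a2 held 9.47 and 9.41 CPM in KO and 67.3 and 70.7 CPM in WT at day 1, and 58.8 and 55.2 CPM in KO and 144 and 145 CPM in WT at day 14. At day 28 its libraries held 66.8 and 75.3 CPM in KO and 150 and 131 CPM in WT. It was lower in KO at each day, with log2 fold changes of -2.87 ± 0.10 (adjusted p = 2.5e-14), -1.34 ± 0.08 (adjusted p = 2.21e-11) and -0.98 ± 0.08 (adjusted p = 3.08e-09).

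Col4a5, a chain of a rarer type IV network, averaged 37, 39.8 and 35.4 CPM in KO and 47.2, 67.2 and 58.7 CPM in WT at days 1, 14 and 28. It was lower in KO at each day, with log2 fold changes of -0.35 ± 0.08 (adjusted p = 0.00141), -0.75 ± 0.08 (adjusted p = 1.4e-07) and -0.73 ± 0.08 (adjusted p = 3.44e-07). Col4a3 and Col4a4, partners of Col4a5 in kidney and other specialised basement membranes, were scarce, at 0.379 to 0.83 and 1.05 to 4.07 CPM in KO group means and 0.588 to 1.95 and 2.32 to 6.64 CPM in WT group means. Exons of Col4a3 overlap those of C430014B12Rik on the other strand. The calls of both chains at days 14 and 28 each turned on single libraries. Without KO replicate 1 of day 14, Col4a3 was at -1.36 (adjusted p = 0.141) and Col4a4 at -0.63 (adjusted p = 0.295). Without WT replicate 2 of day 14, the values were -1.18 (adjusted p = 0.199) and -1.08 (adjusted p = 0.105), and without WT replicate 1 of that day Col4a4 was at -1.23 (adjusted p = 0.081). At day 28 both calls were lost without either KO library and with DESeq2 (adjusted p = 0.131 for Col4a3 and 0.127 for Col4a4), and also without WT replicate 1 for Col4a3 (-1.11) and WT replicate 2 for Col4a4 (-0.54). The 6 endothelial markers summed to 1.25 to 2.26 CPM in KO and 2.01 to 5.77 CPM in WT, and their part in the type IV values was not tested.

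The multiplexins Col15a1 and Col18a1 belong to basement membrane zones, and the end of the Col18a1 chain is released as endostatin. Col15a1 held 6.66 and 5.07 CPM in KO and 35.2 and 38.6 CPM in WT at day 1, and 66.6 and 71.5 CPM in KO and 159 and 163 CPM in WT at day 14. The day 28 libraries held 122 and 94.1 CPM in KO and 136 and 112 CPM in WT. The lines were 6.34-fold apart at day 1 and overlapped at day 28. Its log2 fold change was -2.66 ± 0.16 (adjusted p = 5.31e-11), -1.22 ± 0.11 (adjusted p = 5.97e-09) and -0.20 ± 0.10 (adjusted p = 0.117). The day 28 difference was called with library totals (-0.29, adjusted p = 0.0239), without WT replicate 2 (-0.33, adjusted p = 0.00362) and without KO replicate 1 (-0.39, adjusted p = 0.0065). Col18a1 held 28.8 and 26.5 CPM in KO and 81.7 and 88.3 CPM in WT at day 1, and 39.9 and 40.6 CPM in KO and 127 and 140 CPM in WT at day 14. By day 28 there were 145 and 146 CPM in KO and 175 and 168 CPM in WT. KO libraries stayed low through day 14 and came near WT at day 28. Its differences were -1.62 ± 0.08 (adjusted p = 1.62e-12), -1.73 ± 0.08 (adjusted p = 1.89e-13) and -0.23 ± 0.07 (adjusted p = 0.00749).

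All 3 transmembrane chains tested were lower in KO at every day, as were 8.66% of all genes tested. Col13a1, a membrane collagen of cell contacts including the neuromuscular junction, held 0.341 and 0.515 CPM in KO and 1.1 and 1.7 CPM in WT at day 1, and 5.38 and 4.8 CPM in KO and 32.7 and 33.8 CPM in WT at day 14. For day 28 the values were 2.85 and 1.97 CPM in KO and 24.1 and 16.7 CPM in WT. The WT level at day 14 was the highest of the 6 groups, and every KO library lay below the WT libraries of its day. Its log2 fold change was -1.67 ± 0.50 (adjusted p = 0.0103), -2.71 ± 0.19 (adjusted p = 2.94e-10) and -3.11 ± 0.22 (adjusted p = 5.53e-10). The day 1 call, which rests on 4 and 7 counts in KO and 17 and 26 counts in WT, was lost without WT replicate 2 (-1.33, adjusted p = 0.107) and without KO replicate 1 (-1.42, adjusted p = 0.0811). The window before the Col13a1 start (chr10:61979109-61979358, minus strand, GRCm38.p6) is shown for the chain of this class with the highest WT level, with its TATA box in capitals.
Col13a1: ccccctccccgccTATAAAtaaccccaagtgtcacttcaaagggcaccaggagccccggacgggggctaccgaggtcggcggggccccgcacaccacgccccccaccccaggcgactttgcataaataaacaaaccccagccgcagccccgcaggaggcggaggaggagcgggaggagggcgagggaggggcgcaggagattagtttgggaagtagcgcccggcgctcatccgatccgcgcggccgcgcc
It held 1 TATA box and no GC or CCAAT box, while the Col23a1 window held 1 GC box and the Col25a1 window 2 GC boxes and 1 CCAAT box.

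Col23a1 held 7.08 and 6.54 CPM in KO and 22.6 and 20 CPM in WT at day 1, 2.64 and 2.66 CPM in KO and 15.8 and 14.9 CPM in WT at day 14, and 3.72 and 4.14 CPM in KO and 14.8 CPM in both WT libraries at day 28. All KO libraries were below all WT libraries. The difference on the log2 scale was -1.65 ± 0.14 (adjusted p = 7.37e-09), -2.54 ± 0.18 (adjusted p = 3.47e-10) and -1.90 ± 0.16 (adjusted p = 7.98e-09). Col25a1, whose shed ectodomain is known from amyloid plaques, held 2 and 1 counts in KO and 22 and 10 counts in WT at day 1, 4 and 4 counts in KO and 35 and 27 counts in WT at day 14, and 2 and 2 counts in KO and 85 and 87 counts in WT at day 28. It stayed at a few counts in KO while WT libraries were highest at day 28. With 3 counts in KO and 32 in WT at day 1, its scaled level was 8.81-fold lower in KO (exact binomial 95% interval 2.76 to 45, counting error only). The fitted log2 fold change was -3.04 ± 0.68 (adjusted p = 0.00113) at day 1, -3.04 ± 0.48 (adjusted p = 1.88e-05) at day 14, and at day 28 it was -5.34 ± 0.46 (adjusted p = 1.24e-08).

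Col7a1, which forms the anchoring fibrils of skin, averaged 2.65, 1.63 and 2.13 CPM in KO and 3.36, 3.57 and 3.56 CPM in WT at days 1, 14 and 28. It was called at day 14 (-1.11 ± 0.34, adjusted p = 0.0102), and this call was lost without WT replicate 2 (-0.82, adjusted p = 0.113) or KO replicate 2 (-0.89, adjusted p = 0.104). The day 28 difference of -0.73 ± 0.30 (adjusted p = 0.0585) was called without WT replicate 1 (-0.95, adjusted p = 0.0307). The 10 genes below the filter held 0 to 11 counts in any library, and a count of 0 allows up to 3. They were Col4a6, Col6a6, Col10a1, Col17a1, the FACIT genes Col9a1, Col9a2, Col14a1 and Col19a1, and Col26a1 and Col28a1. Col10a1, the collagen of hypertrophic cartilage, held 1 to 5 counts, and Col4a6, whose gene lies head to head with Col4a5 at a distance of 1309 bases, held 0 to 3. Col9a3, the scarcest FACIT chain tested, averaged 0.837, 0.93 and 2.11 CPM in KO and 0.752, 0.784 and 1.17 CPM in WT.

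In both lines more chains were higher than lower at day 14 than at day 1. In KO, 20 were higher and 3 lower at day 14 than at day 1, where 37.5% of all genes were called, 19.4% higher and 18.0% lower. In WT, 21 chains were higher and 2 lower at day 14 than at day 1, where 34.1% of all genes were called, 18.2% higher and 15.9% lower. At day 28 against day 14, 10 chains were higher and 17 lower in KO (50.7% of all genes called, 25.6% higher and 25.1% lower). In WT the same span had 5 higher and 17 lower (34.7%, with 17.9% higher and 16.8% lower). At day 28 against day 1, 14 were higher and 11 lower in KO (55.5%, with 28.2% higher and 27.4% lower). In WT that span had 18 higher and 10 lower (48.0%, with 24.6% higher and 23.3% lower). The median log2 change of the 34 chains was 0.55 in KO and 0.62 in WT from day 1 to day 14, and -0.66 in KO and -0.42 in WT from day 14 to day 28, beside medians over all genes of at most 0.01 in size.

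**Figure D4:**
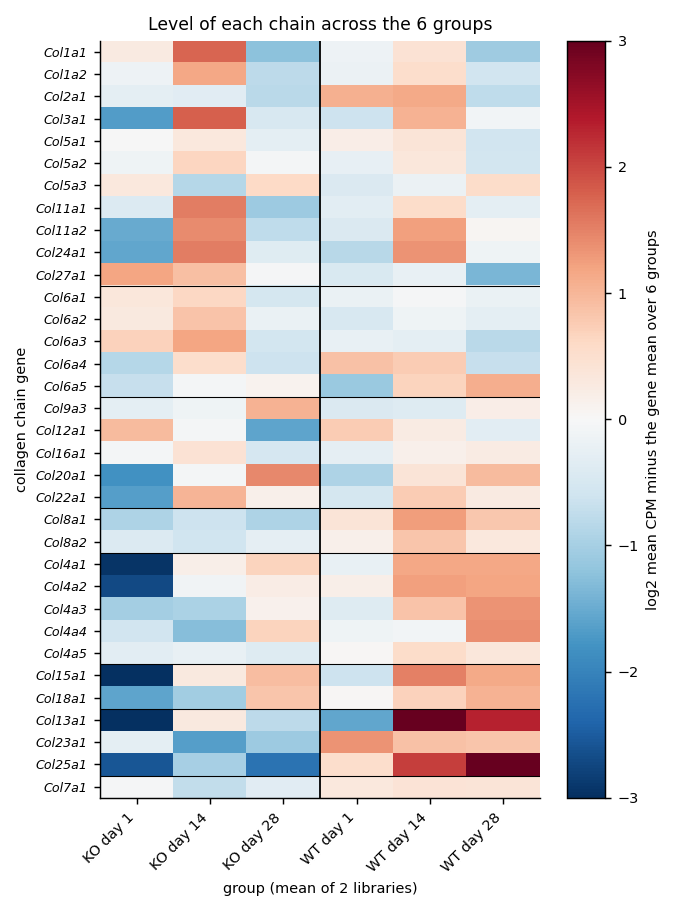
Log2 mean CPM of each of the 34 chains tested in each of the 6 groups (mean of 2 libraries), centred on the chain's own mean over the groups, with lines between classes and between KO and WT. The day 14 column of KO holds the highest level of 12 chains (19.0% of all genes tested had theirs there), most of them fibrillar or beaded filament, and the day 1 column of KO holds the lowest level of 13 (18.8% of all genes).

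The highest of the 6 group means fell in KO at day 14 for 12 of the 34 chains and for 19.0% of all genes tested, a description with no test. These chains were Col1a1, Col1a2, Col3a1, Col5a2, Col6a1, Col6a2, Col6a3, Col11a1, Col11a2, Col16a1, Col22a1 and Col24a1. It fell in WT at day 14 for 9 chains (13.9% of all genes) and in WT at day 28 for 6 (17.0% of all genes), among them Col4a1, Col4a3, Col4a4 and Col18a1. The lowest group mean fell in KO at day 1 for 13 chains (18.8% of all genes), including Col4a1, Col4a2, Col15a1 and Col18a1, and in KO at day 28 for 9 (19.3% of all genes), including Col1a1, Col1a2, Col11a1 and Col12a1. From day 14 to day 28 in WT, 10 of the 11 fibrillar chains were lower at day 28 and Col5a3 was higher. In KO 9 of the 11 were lower at day 28, Col5a3 was higher (1.47 ± 0.11, adjusted p = 2.81e-10), and Col2a1 was not called. Of all genes tested, 16.8% were called lower in WT and 25.1% in KO from day 14 to day 28. Col1a1 changed by -2.98 ± 0.17 (adjusted p = 4.94e-12) in KO and by -1.5 ± 0.16 (adjusted p = 4.79e-07) in WT over that span. Col4a1 rose in KO from day 1 to day 14 by 3.12 ± 0.10 (adjusted p = 5.07e-15) and in WT by 1.38 ± 0.08 (adjusted p = 1.49e-11). Col12a1 fell by 2.54 ± 0.10 (adjusted p = 2.93e-14) in KO and by 1.09 ± 0.10 (adjusted p = 1.15e-08) in WT from day 1 to day 28.

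Whether the lines changed by different amounts was tested as the change in KO minus the change in WT, which uses the same libraries as the comparisons above. From day 1 to day 14 the change differed for 18 chains, 11 more positive and 7 more negative in KO, where 18.8% of all genes were called, 9.19% more positive and 9.65% more negative. From day 14 to day 28 it differed for 17 chains, 7 more positive and 10 more negative in KO (24.1% of all genes, 12.6% and 11.5%). From day 1 to day 28 it differed for 19 chains, 9 more positive and 10 more negative (20.0%, with 10.6% and 9.48%). Of the fibrillar chains, 6 had a more positive change in KO from day 1 to day 14 and 1, Col5a3, a more negative one (-1.45 ± 0.15, adjusted p = 1.01e-06). From day 14 to day 28, 5 fibrillar chains had a more negative change in KO, with Col11a1 at -1.78 ± 0.12 (adjusted p = 6.77e-10). The multiplexins went the other way over that span, with Col15a1 at 1.02 ± 0.15 (adjusted p = 2.44e-05) and Col18a1 at 1.5 ± 0.10 (adjusted p = 7.66e-10).

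The ratio of transcript levels between chains of the same collagen type differed between groups. These ratios are of CPM per kilobase and are given as a description. Col1a1 over Col1a2 was 0.972 and 0.978 in KO and 0.73 and 0.749 in WT at day 1, 1.09 and 1.07 in KO and 0.678 and 0.69 in WT at day 14, and 0.595 and 0.453 in KO and 0.537 and 0.49 in WT at day 28. The ratio was above WT in KO at days 1 and 14 and overlapped at day 28. The size of this ratio depends on the transcript lengths chosen: with the union of all exons it was 2.26 in KO and 1.44 in WT at day 14, and a change of length scales the ratio by the same factor in every library. Col4a1 over Col4a2 was 1.1 and 1.07 in KO and 0.968 and 1.01 in WT at day 1, 1.48 and 1.65 in KO and 1.23 and 1.22 in WT at day 14, and 1.81 and 1.76 in KO and 1.26 in both WT libraries at day 28. Col8a1 over Col8a2 was below WT in KO at every day, at 0.648 ± 0.03, 0.896 ± 0.0446 and 0.58 ± 0.013 in KO and 1.09 ± 0.000655, 1.24 ± 0.0781 and 1.27 ± 0.072 in WT (SD, n = 2). Col5a1 over Col5a2 was likewise lower in KO, at 0.321 ± 0.000645, 0.236 ± 0.00347 and 0.255 ± 0.00561 in KO and 0.403 ± 0.00555, 0.313 ± 0.00276 and 0.293 ± 0.026 in WT. Col6a3 over Col6a1 was 2.26 ± 0.0512, 2.63 ± 0.11 and 1.75 ± 0.285 in KO and 1.74 ± 0.0372, 1.5 ± 0.0293 and 1.14 ± 0.126 in WT, higher in KO libraries at every day. Col11a1 over Col11a2 was 3.34 ± 0.216, 1.69 ± 0.1 and 1.31 ± 0.379 in KO and 1.7 ± 0.0421, 0.988 ± 0.00212 and 1.24 ± 0.0988 in WT. Type III collagen is built from Col3a1 chains alone, and its level was also set against that of the type I chain Col1a1. Col3a1 over Col1a1 was higher at each later day in both lines, at 0.0145 ± 0.000535, 0.0582 ± 0.00566 and 0.0948 ± 0.00576 in KO and 0.0404 ± 3.37e-05, 0.0852 ± 0.00276 and 0.11 ± 0.000867 in WT.

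**Figure D5:**
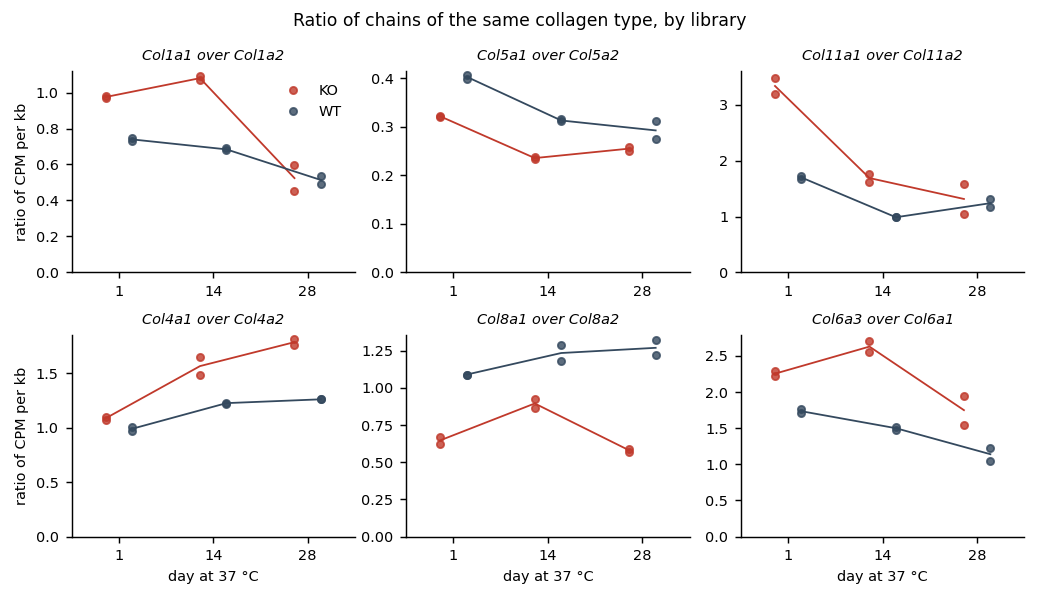
Ratio of the levels (CPM per kilobase of transcript) of 6 pairs of chains, each of 1 collagen type, by library against days at 37 °C; y axes start at 0, points are libraries and lines join the means of 2 libraries, KO in red and WT in dark grey-blue. Col1a1 over Col1a2 is above WT in KO at days 1 and 14, and Col8a1 over Col8a2 and Col5a1 over Col5a2 are below WT in KO at all 3 days.

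The genes that modify, export, cleave and bind collagen were read from the same fit. Of 16 collagen-modifying enzymes tested, 2 were higher and 9 lower in KO at day 1. At day 14, 7 were higher and 6 lower, and at day 28, 2 were higher and 7 lower. The shares of all genes tested were 19.5%, 23.8% and 19.8% higher and 20.8%, 25.9% and 21.2% lower at these days. P4ha1, a catalytic subunit of prolyl 4-hydroxylase, was lower in KO at day 1 (-1.95 ± 0.13, adjusted p = 2.36e-10) and day 28 (-1.26 ± 0.13, adjusted p = 1.44e-07). P4ha3, another such subunit, was higher in KO at day 1 (1.18 ± 0.14, adjusted p = 7.95e-07). P3h2, a prolyl 3-hydroxylase, was lower at each day, with log2 fold changes of -4.44 ± 0.25 (adjusted p = 1.07e-11), -1.22 ± 0.15 (adjusted p = 1.13e-06) and -2.20 ± 0.19 (adjusted p = 1.12e-08). Fkbp10 and Fkbp14, prolyl isomerases of the endoplasmic reticulum, were higher in KO at day 14, by 0.89 ± 0.09 (adjusted p = 5.5e-08) and 0.90 ± 0.10 (adjusted p = 1.17e-07).

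Of 10 chaperone and export genes, 1 was higher and 5 lower in KO at day 1. At day 14, 8 were higher and 1 lower, and at day 28, 3 were higher and 4 lower. Among all genes tested, 40.3%, 49.7% and 41.0% were called at these days, with 23.8% higher and 25.9% lower at day 14. The coat protein gene Sec13 was higher at day 14 (1.10 ± 0.07, adjusted p = 6.2e-11), as was Creb3l1, a transcription factor of secretory osteoblasts (0.77 ± 0.13, adjusted p = 3.91e-05). Tmem38b, an ion channel of the endoplasmic reticulum, was lower at all 3 days (-0.98 ± 0.14, -1.69 ± 0.16 and -0.82 ± 0.13; with adjusted p = 1.23e-05, 1.42e-08 and 3.76e-05). Of the 5 propeptide cleavage genes tested of 10 listed, 2 were higher and 1 lower at day 1. At day 14, 3 were higher and none lower, and at day 28, 2 were higher and 1 lower. The shares of all genes given for the chaperone and export list apply here too. Bmp1, a protease that cleaves propeptides, was lower at day 1 (-0.20 ± 0.08, adjusted p = 0.0431) and higher at days 14 (0.86 ± 0.08, adjusted p = 1.67e-08) and 28 (0.40 ± 0.08, adjusted p = 0.000508).

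Of the 5 lysyl oxidases, which cross-link collagen, 1 was higher and 3 lower in KO at day 1, 1 higher and 2 lower at day 14, and all 5 were lower at day 28. Lox itself was lower at each day (-1.17 ± 0.14, -0.47 ± 0.14 and -0.82 ± 0.15; adjusted p = 9.97e-07, 0.00816 and 0.000159), and Loxl2 was lower at days 1 (-1.94 ± 0.12, adjusted p = 6.42e-11) and 28 (-1.39 ± 0.12, adjusted p = 9.68e-09). Fibril-binding proteins split, with 7 higher and 3 lower of 14 at day 1, 6 higher and 4 lower at day 14, and 1 higher and 6 lower at day 28. Postn, the matricellular protein periostin, was higher at day 14 (0.94 ± 0.10, adjusted p = 7.07e-08) and day 28 (1.35 ± 0.10, adjusted p = 1.11e-09), and Omd, a proteoglycan of bone, was lower at day 28 (-2.55 ± 0.24, adjusted p = 4.02e-08). Of 9 collagen receptors, 2 were higher and 2 lower at day 1, 1 higher and 3 lower at day 14, and 2 higher and 5 lower at day 28. Over all genes, 40.3%, 49.7% and 41.0% were called at these days. Ddr2, a receptor kinase for fibrillar collagen, was higher at each day (0.35 ± 0.06, 0.29 ± 0.06 and 0.47 ± 0.06, with adjusted p = 0.000106, 0.000454 and 3.39e-06). Adgrg1 was lower at each day (-1.38 ± 0.29, -1.66 ± 0.43 and -2.5 ± 0.38, with adjusted p = 0.000647, 0.00306 and 2.23e-05). Adgrg6 was lower at days 14 (-1.03 ± 0.14, adjusted p = 2.74e-06) and 28 (-0.8 ± 0.11, adjusted p = 8.6e-06). Of 9 collagen-cleaving proteases, 3 were higher and 1 lower at day 1, 3 higher and 2 lower at day 14, and 1 higher and 5 lower at day 28. The same shares of all genes apply to this list. The collagenase gene Mmp13 was higher at day 14 (2.79 ± 0.24, adjusted p = 5.56e-09) and day 28 (0.77 ± 0.23, adjusted p = 0.0099), and the gelatinase gene Mmp2 was higher at days 1 (0.83 ± 0.08, adjusted p = 2.11e-08) and 14 (1.04 ± 0.08, adjusted p = 8.2e-10) and lower at day 28 (-0.99 ± 0.08, adjusted p = 5e-09). Mmp16, a membrane-type metalloprotease, held 1 and 2 counts in KO and 62 and 58 counts in WT at day 1, 0 and 2 counts in KO and 129 and 80 counts in WT at day 14, and 2 and 1 counts in KO and 179 and 93 counts in WT at day 28. It was called lower in KO at each day (edgeR, adjusted p = 4.14e-07, 1.09e-09 and 1.07e-09). With so few KO counts its scaled level was 33-fold lower in KO at day 1 (exact binomial 95% interval 11 to 163), 113-fold at day 14 (31 to 943) and 90.2-fold at day 28 (30.5 to 440), counting error only.

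The summed level of the 8 osteoblast markers was below WT in KO at each day, at 2310 to 2360 CPM in KO and 4080 to 4130 CPM in WT at day 1, 4360 CPM in both KO libraries and 4780 to 4900 CPM in WT at day 14, and 1340 to 1930 CPM in KO and 2060 to 2800 CPM in WT at day 28. Of these markers, 1 was higher and 3 lower in KO at day 1, 4 higher and 4 lower at day 14, and 2 higher and 3 lower at day 28. Over all genes tested, 40.3%, 49.7% and 41.0% were called at days 1, 14 and 28. Their part in the collagen results was not tested.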

How the data were processed

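Poly(A) RNA from 6 groups of 2 libraries was sequenced by the authors, who deposited 1 table of raw counts per gene, with no normalization. Per the submitters' processing notes the tools were STAR, featureCounts, Subread and edgeR and the build was mm10. Tool versions, the annotation and the strand setting: not given in the sources used here. All 12 sample columns were used, and 3 transgene rows were left out.

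Counts were fitted in R 4.3.3 with edgeR 4.0.16 (filterByExpr with a minimum count of 10 and minimum total of 15, TMM, 1 coefficient per group, 6 residual degrees of freedom, a common biological coefficient of variation of 5.53%). The filter left 13772 genes, and 12 comparisons were tested with the two-sided quasi-likelihood F test and Benjamini-Hochberg adjustment over all of them. CPM were computed on TMM-scaled totals, which had factors of 0.9419 to 1.051. The SE is the log2 fold change over the square root of F. Transcript length, gene positions and exon overlaps came from GENCODE M21 (GRCm38), using the transcript with the longest coding sequence, and all 44 symbols matched. Promoter sequences came from RefSeq (GRCm38.p6). The fitting was tested on simulated data. Intervals cover counting error only.

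The members, classes and lists were chosen with earlier results of these data known. Every chain tested could be named. Full values went to the 10 with the highest mean CPM and, for KO against WT at each day, the 3 highest and 3 lowest called log2 fold changes. Values in all libraries were also given for Col8a1, Col15a1, Col18a1 and Col2a1, chosen after their values were seen. Of the lists of collagen partner genes, the 2 highest and 2 lowest called in a comparison could be named. Alternatives were library totals, RLE scaling, DESeq2 1.42.0, other count filters, a replicate block, an adjusted p of 0.01, each library left out, and, chosen after seeing the data, exon union lengths.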

Additional observations from a re-analysis of the deposited data

Results flagged for a closer look

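The results in this section are those for which the change between days differed between the lines by the test of the difference itself, the change in KO minus the change in WT (edgeR, log2 scale, n = 2 libraries per group, Benjamini-Hochberg over 13772 genes). From day 1 to day 14 this held for 18 chains, from day 14 to day 28 for 17 and from day 1 to day 28 for 19. Values follow for those of these chains that the rule for full values chose. Of the others, Col5a3, Col15a1 and Col18a1 are given with the comparison above. No explanation was tested.

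From day 1 to day 14 the change was more positive in KO for Col1a1 (0.88 ± 0.22, adjusted p = 0.007), Col1a2 (0.63 ± 0.15, adjusted p = 0.00502), Col3a1 (1.81 ± 0.21, adjusted p = 3.66e-06), Col11a1 (1.07 ± 0.12, adjusted p = 1.92e-06) and Col11a2 (1.27 ± 0.23, adjusted p = 0.000435). It was also more positive for Col4a1 (1.74 ± 0.13, adjusted p = 6.87e-09), Col4a2 (1.53 ± 0.14, adjusted p = 1.05e-07) and Col6a3 (0.56 ± 0.16, adjusted p = 0.0153). It was more negative in KO for Col12a1 (-0.49 ± 0.14, adjusted p = 0.0144) and Col23a1 (-0.89 ± 0.24, adjusted p = 0.0129). The Col1a1 call was lost with DESeq2 (adjusted p = 0.0863). The Col6a3 call was lost with DESeq2 (adjusted p = 0.0975) and without WT replicate 1 or either KO library of day 1, or either WT library or KO replicate 1 of day 14 (adjusted p = 0.0501 to 0.0629). That of Col12a1 was lost with DESeq2 (adjusted p = 0.0852) and without WT replicate 1 or KO replicate 2 of day 1, or replicate 2 of either line at day 14 (adjusted p = 0.0568 to 0.0676). That of Col23a1 was lost without KO replicate 1 of day 1 or either KO library of day 14 (adjusted p = 0.0515 to 0.0548).

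From day 14 to day 28 the change was more negative in KO for Col1a1 (-1.48 ± 0.22, adjusted p = 3.67e-05), Col1a2 (-0.87 ± 0.15, adjusted p = 0.000189), Col3a1 (-1.16 ± 0.21, adjusted p = 0.00026), Col11a1 (-1.78 ± 0.12, adjusted p = 6.77e-10) and Col11a2 (-1.03 ± 0.22, adjusted p = 0.0018). The same direction held for Col6a1 (-1.0 ± 0.11, adjusted p = 1.4e-06), Col6a2 (-0.89 ± 0.14, adjusted p = 6e-05), Col6a3 (-1.21 ± 0.16, adjusted p = 7.59e-06) and Col12a1 (-0.96 ± 0.14, adjusted p = 2.99e-05). It was more positive for Col4a1 (0.51 ± 0.11, adjusted p = 0.00112), Col4a2 (0.36 ± 0.11, adjusted p = 0.0219) and Col20a1 (0.94 ± 0.31, adjusted p = 0.0327). The Col4a2 call was lost without either WT library or KO replicate 2 of day 14, or KO replicate 2 of day 28 (0.27 to 0.36, adjusted p = 0.057 to 0.123). The Col20a1 call was lost with DESeq2 (adjusted p = 0.0942) and without WT replicate 2 or either KO library of day 14, or WT replicate 1 or KO replicate 2 of day 28 (0.76 to 1.01, adjusted p = 0.0657 to 0.132). The Col11a2 value was -0.66 (adjusted p = 0.00473) without KO replicate 2 of day 28.

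From day 1 to day 28 the change was more positive in KO for Col3a1 (0.65 ± 0.22, adjusted p = 0.0385), Col4a1 (2.25 ± 0.13, adjusted p = 1.37e-10), Col4a2 (1.89 ± 0.13, adjusted p = 3.63e-09), Col5a1 (0.51 ± 0.14, adjusted p = 0.0132), Col5a2 (0.38 ± 0.12, adjusted p = 0.0237) and Col20a1 (1.39 ± 0.39, adjusted p = 0.0138). It was more negative for Col6a1 (-0.86 ± 0.11, adjusted p = 1.52e-05), Col6a2 (-0.68 ± 0.14, adjusted p = 0.00133), Col6a3 (-0.65 ± 0.16, adjusted p = 0.00594), Col11a1 (-0.71 ± 0.12, adjusted p = 0.000206) and Col12a1 (-1.45 ± 0.14, adjusted p = 2.77e-07). The Col3a1 call was lost with DESeq2 (adjusted p = 0.222) and without any 1 of 9 of the 12 libraries (adjusted p = 0.0505 to 0.291), with a value of 0.32 without KO replicate 1 of day 28 and 0.38 without WT replicate 2 of day 28. The 3 libraries whose removal kept it were WT replicate 1 of days 14 and 28 and KO replicate 2 of day 28. The Col5a1 call was lost with DESeq2 (adjusted p = 0.0799), without WT replicate 1 or either KO library of day 1 (adjusted p = 0.0514 to 0.057) and without KO replicate 1 of day 28 (0.31, adjusted p = 0.103). The Col5a2 call was lost without WT replicate 1 or either KO library of day 1 (adjusted p = 0.0806 to 0.0956) and without KO replicate 1 of day 28 (0.21, adjusted p = 0.156). That of Col20a1 was lost without replicate 2 of either line at day 1 or KO replicate 2 of day 28 (1.11 to 1.21, adjusted p = 0.0522 to 0.109). Without WT replicate 1 of day 28, calls held at 0.97 for Col3a1 (adjusted p = 1.22e-05), -0.33 for Col6a3 (adjusted p = 0.00505) and -0.40 for Col6a2 (adjusted p = 0.000317). Without WT replicate 2 of day 28, Col5a1 was at 0.33 (adjusted p = 0.0117).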

How the results depend on the processing

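The count of collagen chains called stayed within 1.5 times its reported value in each of the 12 comparisons under each of the 19 alternatives run. With 1 library left out it ran from 18 to 26, 23 to 28 and 19 to 25 for KO against WT at days 1, 14 and 28. DESeq2 called 19, 25 and 17 chains, and library totals called 5 higher and 18 lower, 10 and 17, and 2 and 22. Among the KO against WT log2 fold changes of the named chains at the 3 days, 914 alternatives kept direction and call, 23 gained a call, 29 lost one and 6 reversed. The reversals, none of them from a called value, were Col1a2 at day 1 with library totals (-0.03) and without WT replicate 2 (-0.01), Col1a1 at day 28 without WT replicate 1 or KO replicate 2 (0.14 in both), Col1a2 at day 28 without WT replicate 1 (0.03) and Col6a2 at day 28 without WT replicate 2 (-0.13). With 1 library left out, Col1a2 at day 1 ran from -0.01 to 0.07, Col1a1 at day 28 from -0.57 to 0.14, Col1a2 at day 28 from -0.42 to 0.03 and Col6a2 at day 28 from -0.13 to 0.38. The cause was not tested. With no filter on low counts 26, 29 and 26 chains were called, among them Col1a1 (adjusted p = 0.00203), Col1a2 (adjusted p = 6.21e-05) and Col6a3 (adjusted p = 3.81e-06) at day 28. Over all genes, 2594 changes from day 1 to day 14 differed between the lines, against 1668 without KO day 1 replicate 2 and 1679 without KO day 14 replicate 1. From day 1 to day 28, 2761 differed, against 1808 without WT day 1 replicate 1, 1808 without KO day 1 replicate 1 and 1691 without KO day 1 replicate 2. Same-numbered replicates were not paired by the labels, and their deviations correlated by -0.0402 to 0.112. With the replicate number as a block, 24, 28 and 23 chains were called at days 1, 14 and 28, and Col6a3 at day 28 gained a call (0.27, adjusted p = 0.0303). With exon union lengths the fibrillar share was 77.1%, 86.0% and 77.3% in KO and 80.2%, 83.5% and 73.4% in WT at days 1, 14 and 28, and Col1a1 over Col1a2 was 2.05, 2.26 and 1.1 in KO and 1.55, 1.44 and 1.08 in WT. Depth limits Col4a3, Col4a4, Col6a4, Col9a3, Col13a1 and Col25a1.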
